A study of Mus musculus with 13 samples.

Results

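Mouse embryonic fibroblasts (MEFs) labelled Prkd3-/- were compared between the spontaneously immortalized and the primary state, with state as the only factor. The comparison took every library whose label begins with the immortalized MEF name and Prkd3-/- (4) and every library whose label begins with the primary MEF name and Prkd3-/- (3), which is 7 of the 13 libraries of the series. The primary libraries carry the clone numbers 13, 14 and 15, and the immortalized lines carry the numbers 13, 13a, 14 and 15. Lines 13 and 13a share a number, so effect sizes are also given with their counts summed into 1 library. No drug or other agent is named for any group. Per the labels, MEFs were grown in 10% fetal calf serum, passaged until they stopped dividing at senescence and then kept in 20% serum, in a variant of the NIH 3T3 protocol, until colonies grew out and were established as lines. The article describes embryos and lines for the wild type (WT) only, and the sources used here do not give the part of Prkd3 that was deleted, nor how many colonies founded each line. Each line is 1 culture. Nothing in the labels says that libraries of a group came from separate embryos, and p-values measure the spread between these libraries.

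Primary MEFs divide for a limited number of passages and then enter senescence, a lasting arrest in which the INK4 and ARF proteins of the Cdkn2a locus and the p53 protein restrain the cell cycle. Cultures that escape commonly carry mutations of p53 or have lost the Cdkn2a locus, and established mouse lines are often aneuploid. Senescent fibroblasts also secrete cytokines, proteases and growth factor binding proteins. Prkd3 encodes protein kinase D3, a serine/threonine kinase that acts downstream of diacylglycerol and protein kinase C.

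Prkd3 was still counted in all 7 libraries. Its level was 44.3, 41.2 and 34.95 CPM (counts scaled to library size) in primary libraries 13, 14 and 15, and 61.5, 50.8, 62.6 and 45.0 in lines 13, 13a, 14 and 15. Every line was above every primary library, with a log2 fold change (Log2FC, immortalized over primary) of 0.45 ± 0.19 (SE) and an adjusted p of 0.75 in edgeR's quasi-likelihood test with Benjamini-Hochberg adjustment. On a scale normalised over all 13 libraries the primary mean was 38.8 ± 4.87 CPM (SD, n = 3), against 71.7 ± 2.32 CPM (SD, n = 3) in WT primary MEFs. Counts per gene cannot show the loss of single exons, so Prkd3-/- refers to the label throughout. The other members of the kinase family had Log2FC of -0.38 ± 0.23 (Prkd2) and 0.11 ± 0.32 (Prkd1), and neither passed the test.

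The primary libraries held 35273408 to 100441756 counts on genes and the lines 52659057 to 72695290. A count of 3, taken as the floor for a gene with no count, corresponded to 0.0288 to 0.0877 CPM. Fibroblast identity was present in all libraries, with Col1a1 at 7855 to 16222 CPM and Prrx1 at 182.5 to 802 CPM. Of the other fibroblast markers, Thy1 was at 4.89 CPM in line 13 and 29.8 CPM in line 15, against 376 to 926 CPM in the other 5 libraries, and Dcn was at 0.385 and 0.721 CPM in the same lines, against 4.21 to 212 CPM in the others. Of the endothelial markers, Kdr reached 22.6 CPM in primary MEFs and Tek 13.8 CPM in line 14, while Pecam1 was at or below 0.192 CPM. The Schwann cell marker Sox10 was at or below 0.720 CPM. The epithelial marker Cdh1 was at 0.182 to 0.380 CPM in primary MEFs and highest in line 13a (3.84 CPM). Summed epithelial markers were at 19.5 to 77.1 CPM in the primary libraries and at 141, 28.1, 34.6 and 13.3 CPM in lines 13, 13a, 14 and 15. The neuronal marker Stmn2 was at 20.4 to 63.0 CPM in primary MEFs, while Snap25 was at or below 0.114 CPM. Macrophage markers were not near 0. Their summed level over 30 genes was 296, 3409 and 662 CPM in primary libraries 13, 14 and 15, and 47.6, 655, 88.4 and 87.8 CPM in lines 13, 13a, 14 and 15. Line 13a was thus between the lowest and the highest primary value. In bulk RNA, fewer cells of a type and less RNA per cell cannot be told apart.

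The lines lay apart in different directions. Line 13 had the fewest genes with any count (24251, against 25768 to 28547 in the other libraries) and lay alone at a score of 199 on the first principal component, which held 44.5% of the variance. Line 13a lay at -46.5 on that axis, within the span of the primary libraries (-86.8 to -38.2). Line 14 was at -139.5 and line 13a at 1.35 on the second component, where the primary libraries were at 40.7 to 62.9. Line 15 was at -108.6 on the third. The Spearman correlation of line 13a with the primary libraries was 0.966 to 0.969 across genes, and 0.916 with line 13. The spread between a pair of libraries was taken as edgeR's coefficient of variation beyond counting error. It is the square root of 1 dispersion shared by all genes above a minimum mean CPM. It was 15.04 to 38.04% within the primary group, 34.2 to 70.4% between a primary library and a line and 46.2 to 72.7% between lines. Genes are not independent replicates, and these values describe the libraries. The range between lines thus overlapped that between lines and primary libraries.

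**Figure D1:**
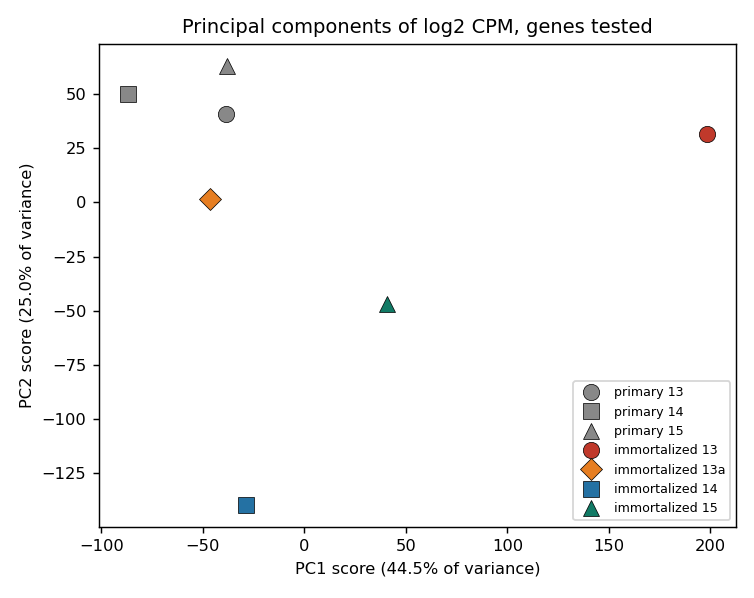
Scores of the 7 libraries on principal components 1 and 2 (44.5% and 25.04% of the variance of log2 CPM over the genes tested; axes in score units). Grey points are primary libraries and coloured points are lines. Line 13 lies alone at 199 on component 1, and line 14 at -139.5 on component 2. Line 13a lies within the span of the primary libraries on component 1 and below it on component 2, at 1.35.

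Of 20298 genes tested, 0 (0%) passed an adjusted p under 0.01 with an absolute Log2FC of at least 1, and 0 passed an adjusted p under 0.05. The smallest adjusted p was 0.13. At an unadjusted p under 0.05 there were 1331 genes (6.56%), of which 881 had lower and 450 higher levels in the lines. The standard deviation among the lines was larger than that among the primary libraries for 80.7% of genes, with a median ratio of 2.05. Another test of the same counts, DESeq2's Wald test, called 163 of 24345 genes lower (0.67%) and 27 higher (0.111%). Of these, 173 were in the edgeR table, and 168 of the 173 did not overlap between states. DESeq2 called 299 genes without line 13, 547 without line 13a, 112 without primary library 14, 65 without primary library 13 and 51 without primary library 15. A plain count was used beside the tests: 1107 genes (5.45%) were lower in every line than in every primary library, and 817 genes (4.03%) were higher in every line. Of these, 640 had a Log2FC of -1 or less and 161 a Log2FC of 1 or more. The median Log2FC over all genes tested was 0.07.

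With the counts of lines 13 and 13a summed, 0 of 20331 genes passed the test, the smallest adjusted p was 0.12, and 1798 had an unadjusted p under 0.05. The Log2FC moved by a median of 0.09 per gene against the fit with 4 lines, and the Spearman correlation of both sets of values was 0.962 across genes, which share all libraries. In that form 1823 genes were below and 1436 above every primary library. Of the 1107 and 817 genes that did not overlap with 4 lines, 1104 and 781 were among them.

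Slc16a12, which encodes a monocarboxylate transporter that carries creatine (ENSMUSG00000009378, GRCm38 chr19:34668403-34747289, minus strand), had the smallest p of all genes. Its level was 5.10, 2.80 and 2.98 CPM in the primary libraries and 0.0578, 0.0709, 0.0162 and 0.0416 CPM in lines 13, 13a, 14 and 15. The lines rest on 1 to 5 counts each, and all 4 were far below the primary libraries. Its Log2FC was -6.23 ± 0.56 (SE), or -6.36 with lines 13 and 13a summed. The adjusted p was 0.13 in edgeR and 1.39e-20 in DESeq2, and a joint edgeR fit of all 13 libraries, which borrows the spread of the WT libraries, called this gene alone (Log2FC -6.22).

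Among the 12 genes with the smallest p that were lower in every line, Mmp9, the gelatinase that degrades type IV collagen (GRCm38 chr2:164940780-164955850), was at 61.5, 61.7 and 38.7 CPM in the primary libraries. In lines 13, 13a, 14 and 15 it was at 0.828, 2.41, 1.44 and 0.443 CPM. Its Log2FC was -5.39 ± 0.60 (adjusted p 0.21 in edgeR, 1.68e-16 in DESeq2). Acp5, the tartrate-resistant acid phosphatase of osteoclasts, was at 16.6, 29.1 and 16.1 CPM and then at 0, 0.227, 0.325 and 0.0554 CPM (Log2FC -7.06 ± 1.04, 6.75% of its exon length shared with 6530413G14Rik). Dcstamp, a membrane protein needed for the fusion of osteoclast precursors, was at 0.509, 0.518 and 0.584 CPM and had no count in any line, which is at least 9.30-fold lower against a floor of 3 counts per library. The summed macrophage level was 296, 3409 and 662 CPM in primary libraries 13, 14 and 15. In lines 13, 14 and 15 it was 47.6 to 88.4 CPM, lower as Mmp9, Acp5 and Dcstamp were. Line 13a was at 655 CPM, within the primary range, although these genes were low there too. Mmp9 and Dcstamp also did not follow the sum across the primary libraries. The part of macrophages in these values was not tested. Nlrp3, the inflammasome sensor, is not among these 12 genes. It was at 0.509, 5.22 and 2.13 CPM and then at 0.0193, 0.184, 0.0162 and 0.0831 CPM (Log2FC -5.05 ± 1.07, adjusted p 0.36 in edgeR).

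Of the same 12 genes, Angptl7, a secreted angiopoietin-like protein, was at 47.7, 5.89 and 53.8 CPM in primary libraries 13, 14 and 15. It was at 0.0770, 0.440, 0.0487 and 0.0693 CPM in the lines (Log2FC -7.78 ± 1.14, or -7.96 with lines 13 and 13a summed). Tnn, which encodes tenascin-W, a matrix protein of developing bone, was at 193.5, 4.17 and 66.4 CPM and then at 0.135 to 0.402 CPM. Primary library 14 was the lowest of its group for both genes and still lay above every line. A2m, the broad protease inhibitor alpha-2-macroglobulin, was at 0.379, 0.470 and 0.380 CPM and had 1 count in line 13a and none in the other lines. The ratio of its pooled levels was 108, with a 95% Poisson interval of 18.9 to 4310 that covers counting error only. Vstm2a, a secreted immunoglobulin-domain protein, had 62 counts over the primary libraries and 1 over the lines, a ratio of 71.3 (12.3 to 2860).

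The other 4 of these 12 genes had less extreme values. Gdf15, a stress-induced cytokine and a target of p53, was at 3.02, 4.78 and 3.36 CPM and then at 0.404, 0.766, 0.406 and 0.443 CPM (Log2FC -2.88 ± 0.39). Ltc4s, the synthase of leukotriene C4, was at 0.864 to 1.70 CPM and then at 0.130 to 0.213 CPM, and 26.4% of its exon length is shared with Gm26542, so its counts are uncertain. Tnip3, which encodes an inhibitor of NF-kappaB signalling, was at 1.93 to 7.60 CPM and then at 0.130 to 0.426 CPM. Abca12, a keratinocyte lipid transporter, was at 0.745 to 1.64 CPM and then at 0.0812 to 0.173 CPM. All 12 had adjusted p values of 0.13 to 0.30 in edgeR, and DESeq2 called all 12.

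Prex2, which encodes a guanine nucleotide exchange factor for Rac, was at 3.18, 2.41 and 4.12 CPM in the primary libraries and at 16.1, 16.1, 20.1 and 41.2 CPM in lines 13, 13a, 14 and 15. Lines 13, 13a and 14 lay close together, and line 15 was the highest. Its Log2FC was 2.85 ± 0.44 (adjusted p 0.30 in edgeR, 5.56e-07 in DESeq2) and 2.98 with lines 13 and 13a summed. Jade2, a subunit of a histone acetyltransferase complex, was at 18.2, 14.9 and 13.9 CPM and then at 36.8, 35.3, 43.8 and 27.0 CPM (Log2FC 1.19 ± 0.23). St3gal5, the synthase of ganglioside GM3, was at 32.2, 32.5 and 36.9 CPM and then at 77.9, 61.2, 55.5 and 53.5 CPM (Log2FC 0.87 ± 0.19). Maoa, the monoamine oxidase A, was at 70.4, 82.5 and 71.0 CPM and then at 97.5, 176, 194 and 159 CPM (Log2FC 1.07 ± 0.26). DESeq2 called Prex2 and Jade2, but not St3gal5, Maoa or Akr1c14. Akr1c14, a hydroxysteroid dehydrogenase, was at 8.69, 5.74 and 5.79 CPM and then at 12.7 to 18.3 CPM.

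The remaining higher genes had low counts or were copies of other genes. Emx1, a homeobox gene of the forebrain, had no count in any primary library and was at 0.616, 0.199, 0.178 and 0.624 CPM in the lines, at least 4.61-fold higher. Ces1g, a carboxylesterase, was at 0.0585 to 0.0672 CPM and then at 2.08, 0.184, 1.67 and 1.46 CPM, so that line 13a was the lowest line by far. The pseudogene Apol10c-ps had no count in the primary libraries and 0.941 to 1.25 CPM in the lines, at least 12.6-fold higher. Reads of Rpl30-ps9 and Hmgb1-ps3, which resemble Rpl30 and Hmgb1, cannot be told apart with certainty from reads of those genes. Zfp92, a zinc finger gene, had 2 counts over the primary libraries and 55 over the lines (ratio 23.9, 95% Poisson interval 6.32 to 203), and the unnamed locus AC091332.1 had 2 and 85 counts.

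**Figure D2:**
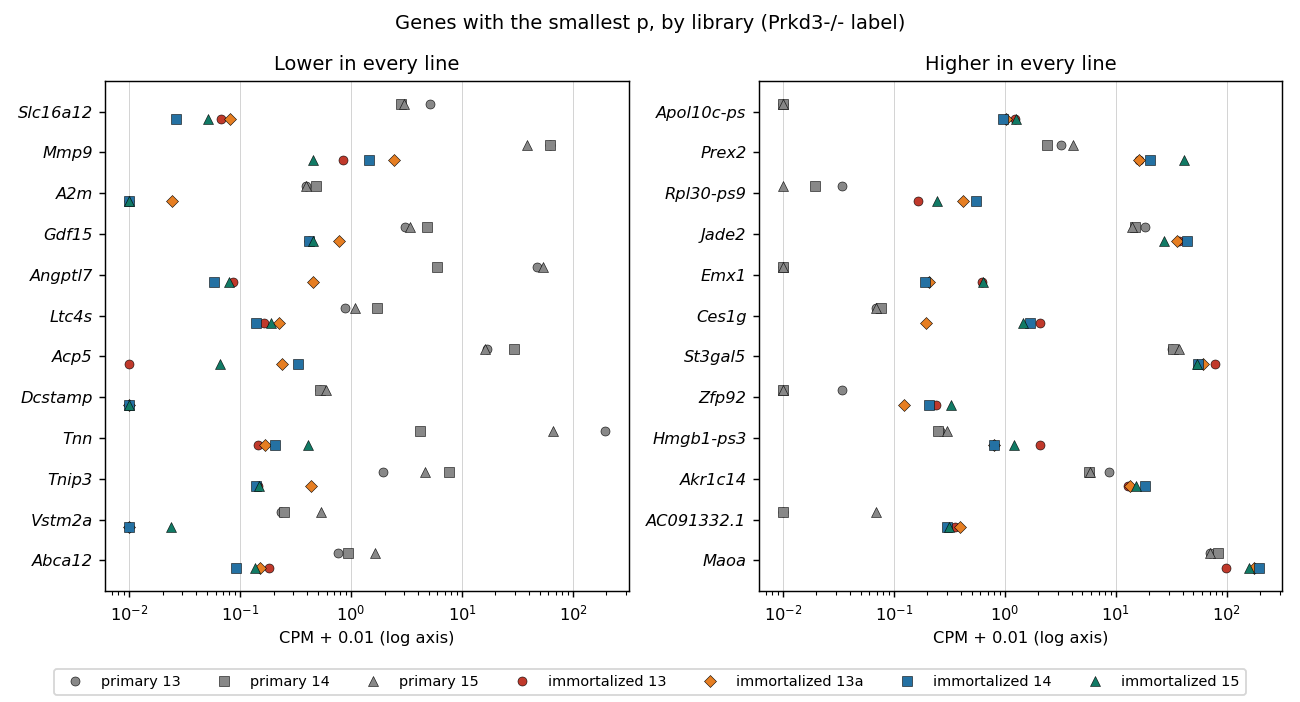
Level of the 12 lower and 12 higher genes with the smallest p (CPM + 0.01, log axis) in each library. Grey symbols are the 3 primary libraries and coloured symbols the 4 lines; in every row the colours and the greys do not overlap, as the choice of genes requires.

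The 250 bases before the RefSeq start (GRCm38.p6) are shown for 2 lower and 2 higher genes, because they show how unlike these windows are in CpG content. Capitals mark CG, the site of DNA methylation, found on either strand.
Slc16a12, chr19:34747329-34747578, minus strand: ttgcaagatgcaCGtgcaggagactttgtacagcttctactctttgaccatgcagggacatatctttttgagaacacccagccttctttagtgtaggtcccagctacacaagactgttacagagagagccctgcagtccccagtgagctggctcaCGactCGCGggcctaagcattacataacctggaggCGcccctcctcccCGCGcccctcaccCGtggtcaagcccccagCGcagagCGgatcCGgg
Angptl7, chr4:148500463-148500712, minus strand: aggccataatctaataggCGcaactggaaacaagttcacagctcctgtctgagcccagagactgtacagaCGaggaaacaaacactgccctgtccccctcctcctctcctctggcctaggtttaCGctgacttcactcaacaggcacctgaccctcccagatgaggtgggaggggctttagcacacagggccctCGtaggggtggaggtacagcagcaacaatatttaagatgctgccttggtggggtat
St3gal5, chr6:72097358-72097607, plus strand: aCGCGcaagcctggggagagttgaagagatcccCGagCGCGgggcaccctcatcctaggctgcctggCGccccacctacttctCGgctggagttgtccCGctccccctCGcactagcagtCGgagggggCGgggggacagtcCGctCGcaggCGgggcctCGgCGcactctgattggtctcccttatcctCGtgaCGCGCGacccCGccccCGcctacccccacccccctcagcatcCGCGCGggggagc
Akr1c14, chr13:4059341-4059590, plus strand: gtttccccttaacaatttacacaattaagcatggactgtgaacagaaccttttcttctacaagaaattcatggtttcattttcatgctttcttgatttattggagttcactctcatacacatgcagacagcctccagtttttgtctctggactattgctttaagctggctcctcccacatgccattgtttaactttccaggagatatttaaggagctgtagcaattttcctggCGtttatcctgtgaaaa
The windows held 11, 4, 25 and 1 CG in this order. Of all 27025 promoter windows of this length, 91.7% held at least 1 CG, and of those of the genes tested 98.6%. Both a CG-rich and a CG-poor window thus occurred among the higher genes. The CG-poor one, of Akr1c14, lies inside the gene as counted (chr13:4049011-4090688). Whether it is the promoter of the transcripts counted was not tested. Only 63.0% of the genes lower in every line and 57.1% of those higher in every line had a window, beside 59.5% of all genes tested. Among those with a window, the median ratio of CG found to CG expected from base content was 0.613 (lower), 0.745 (higher) and 0.705 (all). This describes a part of the genes, and the difference was not tested.

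34 gene lists were described by their counts beside those of all genes. None of their members passed the edgeR test, and DESeq2 called 20 of 862 (2.32%), beside 0.78% of all genes. The lists were chosen with earlier results known. Counts by line are to be read beside those of all 20298 genes tested. Of these, 8428, 5827, 7372 and 6996 were below the lowest primary library in lines 13, 13a, 14 and 15. Above the highest primary library were 7396, 5889, 7167 and 7059.

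**Figure D3:**
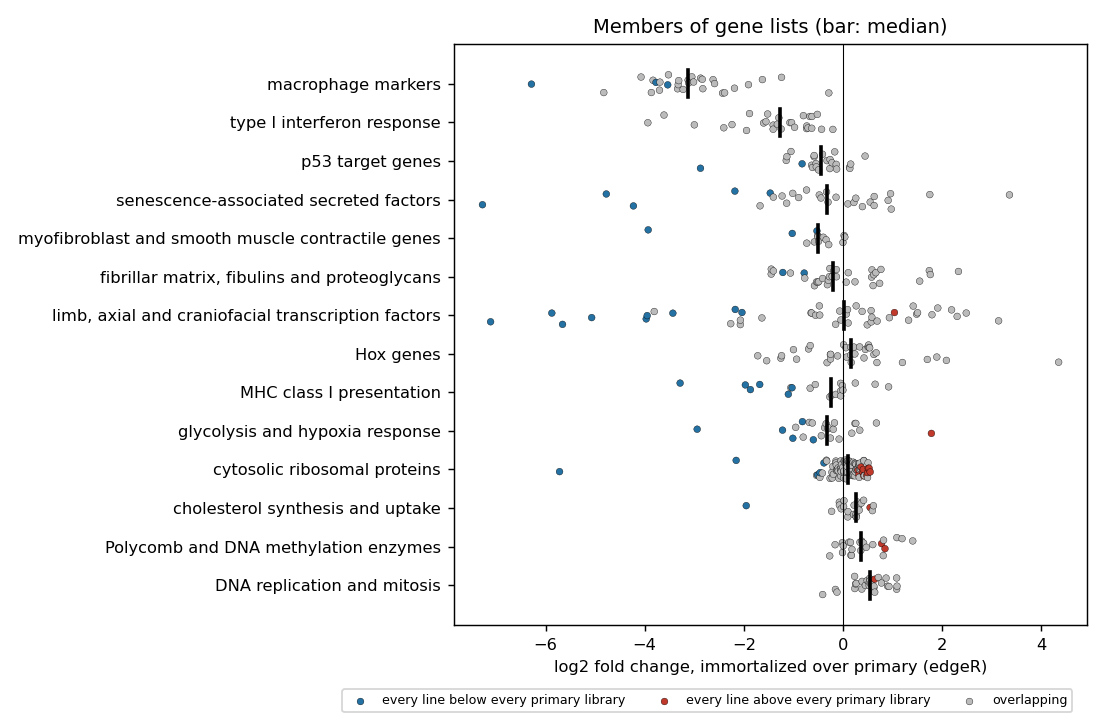
Log2FC (immortalized over primary, fitted by edgeR) of each tested member of selected gene lists, 1 row per list and 1 point per gene, with a bar at the median. Blue points are genes lower in every line than in every primary library, red points are genes higher in every line and grey points overlap; macrophage and interferon genes lie on the negative side throughout, mostly in grey.

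Cell cycle inhibitors differed by line. Cdkn2a, which encodes p16INK4a and p19ARF, was at 65.7, 89.2 and 71.0 CPM in the primary libraries and at 0.231 (12 counts), 193, 71.8 and 87.6 CPM in lines 13, 13a, 14 and 15. Only line 13 was below the primary range, and line 13a had more than any primary library. The neighbouring Cdkn2b, which encodes p15INK4b, was at 86.4, 80.6 and 84.6 CPM and then at 0.135 (7 counts), 61.3, 33.2 and 24.1 CPM, below every primary library in all lines (Log2FC -1.50 ± 1.21, adjusted p 0.86). Mtap, next to Cdkn2a on the other side and named for its position, was at 297 CPM in line 13, above the 127 to 181 CPM of the primary libraries. The low counts of line 13 thus covered Cdkn2a and Cdkn2b and not Mtap.

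The p53 gene Trp53 was at 125, 110 and 139 CPM and then at 263, 109, 174 and 142 CPM. Cdkn1a, the p53 target that encodes p21, was at 422, 617 and 543 CPM and then at 111, 231, 428 and 250 CPM (Log2FC -1.05 ± 0.42, adjusted p 0.73). Of 24 p53 target genes, 20 had negative values, with a median Log2FC of -0.45 (-0.21 without line 13 and -0.70 without line 15). Line by line, 22 of the 24 were below the lowest primary library in line 13, 21 in line 13a, 12 in line 14 and 5 in line 15. Mdm2, the p53 ubiquitin ligase and target, was at 145 to 294 CPM in primary MEFs and highest in line 15 (450 CPM). Gdf15 and Sesn2 were lower in every line, 2 of 24 (8.33%) beside 5.45% of all genes. Cdkn1b, which encodes p27, was higher in every line (54.5, 54.7 and 37.8 CPM, then 64.8, 60.6, 101 and 97.6 CPM). Of 14 cell cycle inhibitor and regulator genes, 1 was higher (Cdkn1b) and 1 lower (Cdkn2b) in every line (7.14% each, beside 4.03% and 5.45% of all genes).

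DNA replication and mitosis genes had positive values in 27 of 30, with a median Log2FC of 0.55. This rests on line 13, where 30 of 30 were above the highest primary library, against 5 in line 13a, 2 in line 14 and 15 in line 15. Without line 13 the median was -0.02. Mcm2, a subunit of the replicative helicase, was at 73.6, 47.5 and 71.7 CPM and then at 241, 87.2, 68.8 and 146.5 CPM. Pcna alone was higher in every line, by 1 of 30 genes (3.33%), beside 4.03% of all genes. Of 9 telomerase and shelterin genes, Terf2, Acd and Pot1a, whose proteins bind telomeres, were higher in every line (33.3%, beside 4.03% of all genes), and Tert, the reverse transcriptase of telomerase, was lower in every line (11.1%, beside 5.45%; 5.47, 4.49 and 4.998 CPM, then 0.327, 3.23, 3.64 and 1.08 CPM). The Log2FC of Terf2 was 0.47 ± 0.19. Of the exon length of Acd, 33.3% is shared with Carmil2.

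Contractile genes were mostly negative. Of 14 contractile genes, 12 had negative values (median Log2FC -0.50) and 3 (21.4%, beside 5.45% of all genes) were lower in every line. In lines 13, 14 and 15, 8, 10 and 8 of the 14 were below the lowest primary library, against 4 in line 13a, and the median was -0.26 without primary library 14. Tpm2, a tropomyosin of contractile filaments, was at 543, 731 and 597 CPM and then at 270.3, 355, 264 and 336.5 CPM. All 4 lines lay below the lowest primary library (Log2FC -1.02 ± 0.20, adjusted p 0.30 in edgeR and 0.00447 in DESeq2). Myh11, the smooth muscle myosin, was at 20.7, 107 and 23.3 CPM and then at 0.0963, 4.10, 2.84 and 6.14 CPM, and Des, which encodes desmin, at 4.46, 28.1 and 5.35 CPM and then at 0.115 to 0.958 CPM. For both genes primary library 14 was the highest. Tpm1, the third contractile gene, had a Log2FC of -0.53 ± 0.34.

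In the matrix list, 20 of 34 genes had negative values, with a median Log2FC of -0.20 that was 0.01 without line 13. Tnc, which encodes tenascin-C, was at 1555, 1925 and 2090 CPM and then at 849, 1080, 765 and 506 CPM (Log2FC -1.21 ± 0.28, adjusted p 0.43). Fbln2, which encodes the basement membrane protein fibulin-2, was at 3914, 3704 and 4600 CPM and then at 2044, 2764, 1776 and 2885 CPM (Log2FC -0.78 ± 0.24). Both were lower in every line, 2 of 34 genes (5.88%, beside 5.45% of all genes), a share near that of all genes. The fibrillar collagens did not move together, with Col1a1 at 9980 to 16222 CPM in primary MEFs and at 7855, 14340, 14510 and 8863 CPM in the lines. Tgfb3, the transforming growth factor ligand that promotes matrix deposition, was at 299, 308 and 326 CPM and then at 110, 197, 136 and 124 CPM (Log2FC -1.14 ± 0.23, adjusted p 0.31). It was lower in every line, as were Bmp5, a bone morphogenetic protein, and Fst, which encodes the activin inhibitor follistatin, 3 of 32 genes of its list (9.38%, beside 5.45% of all genes). By line, 20, 8, 14 and 18 of the 32 were below the lowest primary library in lines 13, 13a, 14 and 15. Of all 20298 genes, 8428, 5827, 7372 and 6996 were.

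Adhesion molecules included Cdh3, which encodes P-cadherin. It was at 144, 68.2 and 108 CPM and then at 48.4, 24.3, 28.8 and 27.8 CPM (Log2FC -1.72 ± 0.33, adjusted p 0.30 in edgeR and 0.00513 in DESeq2). All lines were below all primary libraries. Cdh15, the muscle cadherin, had 85 counts over the primary libraries and 2 over the lines. Among 80 tested cadherins and protocadherins, 4 (5%, beside 4.03% of all genes) were higher in every line, all of the protocadherin beta cluster, and 3 (3.75%, beside 5.45%) were lower, namely Cdh3, Cdh15 and Pcdh15. Both shares are near those of all genes. Pcdhb21 was at 3.76, 2.62 and 2.81 CPM and then at 5.22, 9.26, 31.1 and 18.5 CPM, so that line 13 was nearest to the primary libraries.

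Of 29 senescence-associated secreted factors, 17 had negative values (median Log2FC -0.33), and 5 (17.2%, beside 5.45%) were lower in every line. The median rested on single libraries: it was -0.72 without line 13a, -0.50 without line 13, -0.08 without line 15, -0.11 without primary library 13 and -0.16 without primary library 14. In lines 13, 14 and 15, 19, 18 and 18 of the 29 were below the lowest primary library, against 10 in line 13a, where 10 were above the highest. Cxcl5, a neutrophil-attracting chemokine, was at 130, 4.67 and 88.2 CPM and then at 0.963, 0.355, 0.146 and 0.471 CPM. Primary library 14 was far below the other primary libraries, and all lines were lower still (Log2FC -7.27 ± 1.19, adjusted p 0.30 in edgeR, 7.18e-11 in DESeq2). Angptl4, an inhibitor of lipoprotein lipase, was at 30.5, 3.91 and 17.5 CPM and then at 0.0963, 0.482, 1.17 and 1.93 CPM. Igfbp3, a binding protein that restrains insulin-like growth factors, was at 141, 137 and 71.3 CPM and then at 1.73, 35.8, 60.5 and 4.57 CPM. Cxcl2, also a chemokine, had 2 counts over the lines against 55 over the primary libraries, and Plau, the urokinase, was the fifth.

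In the insulin-like growth factor axis the ligand Igf2, also lower in every line and imprinted, was named after its values were seen. It was at 1206, 897 and 679 CPM in primary libraries and at 0.635, 545, 118 and 87.1 CPM in the lines. Igf2r, the receptor that clears IGF2, was at 733, 785 and 686 CPM and then at 297, 397.5, 470 and 436 CPM (Log2FC -0.88 ± 0.20, adjusted p 0.46). Grb10, an adaptor that damps insulin receptor signalling, was at 868, 1056 and 742 CPM and then at 580.2, 655.5, 561 and 308 CPM. All 3 are imprinted, and with Zdbf2 and Nnat 5 of 30 imprinted genes (16.7%, beside 5.45% of all genes) were lower in every line. The median Log2FC of the 30 was 0.09. In line 13, 26 of the 30 were below the lowest primary library. In lines 13a, 14 and 15, 10, 10 and 11 were, near the shares of all genes in these lines. Peg3 shows this pattern at 177, 353 and 145 CPM in primary MEFs and 2.02, 186, 415 and 538 CPM in the lines.

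Growth factor genes were split. Vegfb, a ligand of the receptor VEGFR1, was higher in every line (31.6, 33.4 and 24.2 CPM, then 50.3, 72.2, 40.4 and 67.6 CPM; Log2FC 0.95 ± 0.26), as was Met, the receptor of hepatocyte growth factor. Pdgfc was lower in every line (93.2, 114 and 99.7 CPM, then 84.9, 51.2, 48.3 and 59.4 CPM), and so was Fgf9. Of 24 genes of this list, 2 were thus higher and 2 lower (8.33% each, beside 4.03% and 5.45% of all genes). Of 32 genes of Wnt signalling none differed without overlap, and the median Log2FC of 0.32 was -0.45 without line 14.

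Glycolysis and hypoxia genes were lower in 18 of 24 by sign (median Log2FC -0.32), and 5 (20.8%, beside 5.45% of all genes) were lower in every line. Adm, the vasodilator adrenomedullin, was at 79.5, 93.6 and 96.7 CPM and then at 26.6, 41.4, 38.8 and 47.7 CPM (Log2FC -1.22 ± 0.22, adjusted p 0.30 in edgeR and 0.00272 in DESeq2). Slc16a3, the lactate exporter, was at 12.6, 30.8 and 14.3 CPM and then at 1.69, 5.73, 2.05 and 0.540 CPM. Both were lower in every line, with Bnip3, Pdk1 and Slc2a1. Ndrg1, another hypoxia gene, was higher in every line and highest in line 14 (196 CPM). Line 14 had 22 of 24 genes below the lowest primary library, line 13 only 6, and the median was -0.15 without line 14 and -0.57 without line 13.

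Of 87 ribosomal protein genes, 11 (12.6%, beside 4.03%) were higher and 5 (5.75%, beside 5.45%) lower in every line. Their median Log2FC was 0.09. In line 13, 57 of the 87 were above the highest primary library, against 21, 26 and 29 in lines 13a, 14 and 15. Of 78 subunits of oxidative phosphorylation, 5 were higher and 5 lower (6.41% each, beside 4.03% and 5.45% of all genes), with a median Log2FC of 0.07. Among 23 Polycomb and DNA methylation enzymes, 19 had positive values (median Log2FC 0.36) and Bmi1 and Phc1, both of Polycomb repressive complex 1, were higher in every line (8.70%, beside 4.03%). That median was 0.20 to 0.48 without 1 library. BMI1 is known to repress Cdkn2a. Bmi1 was at 52.98, 60.3 and 51.3 CPM and then at 116.9, 76.9, 93.7 and 88.96 CPM (Log2FC 0.78 ± 0.19, adjusted p 0.49). Cholesterol synthesis genes had positive values in 18 of 23 (median Log2FC 0.26), although 15 of them were below the primary range in line 14. In the antioxidant list Gclc, which makes glutathione, was higher and Gpx1, a glutathione peroxidase, lower in every line. Each is 1 of 22 genes (4.545%, beside 4.03% and 5.45% of all genes), near the shares of all genes.

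Transcription factors that pattern the limb, trunk and face included 9 of 44 that were lower in every line (20.5%, beside 5.45% of all genes). Pitx1, which specifies the hindlimb, was at 17.0, 1.46 and 20.9 CPM and then at 0.0193, 0.298, 0.0325 and 0.0139 CPM (Log2FC -7.11 ± 1.37, adjusted p 0.30 in edgeR, 3.55e-07 in DESeq2). Lhx2, a homeobox gene of limb bud outgrowth, was at 5.79, 0.346 and 4.53 CPM and then at 0.0162 to 0.193 CPM. For both, primary library 14 was the lowest primary library. Barx1, a homeobox gene of the stomach and jaw, was at 0.805, 1.54 and 0.848 CPM and had 5 counts over all lines. Tfap2b, Alx4, Hand2, Six2 and Gsc were also among the 9. Dlx1, of the craniofacial distal-less family, was the 1 member higher in every line (1.92, 2.43 and 2.22 CPM, then 5.43, 3.14, 4.59 and 4.84 CPM). The list's median was 0.01, because other members were high in single lines. Zic2, a zinc finger gene of the neural tube, was at 1.76 to 3.79 CPM in primary MEFs, at 68.2 CPM in line 14 and had no count in the other lines.

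Hox genes, which record the position of cells along the body axes, had no member without overlap among 36, and their spread was large in both states. Hoxd13, of the digits, was at 186, 7.37 and 135 CPM in primary libraries 13, 14 and 15 and at 206, 0.553, 0 and 12.5 CPM in lines 13, 13a, 14 and 15. Primary library 14 was therefore already apart from the other primary libraries, and lines 13 and 13a differed from each other although they share a number. Of the cartilage genes, Col2a1, which encodes type II collagen, was at 82.3, 102.4 and 132 CPM and then at 83.3, 835, 2091 and 380 CPM (Log2FC 3.00 ± 0.99, adjusted p 0.67). Line 13 overlapped the primary libraries, and line 14 was the highest.

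Markers of other lineages included genes lower in every line. Ednrb, the endothelin receptor of neural crest cells, was at 34.8, 2.81 and 17.1 CPM and then at 0, 0.724, 0.0812 and 0.499 CPM (Log2FC -5.78 ± 1.39, adjusted p 0.47). Stmn2, a microtubule regulator of neurons, was at 51.2, 20.4 and 63.0 CPM and then at 1.58, 1.46, 5.55 and 1.04 CPM (Log2FC -4.22 ± 0.71, adjusted p 0.30). All lines were below all primary libraries for both genes. The summed neural crest list was 37.6 to 58.8 CPM in the primary libraries and 124, 15.2, 16.2 and 2.87 CPM in the lines, and the part of such cells in these values was not tested. Summed neuronal markers were at 147 to 186 CPM in the primary libraries and 22.5 to 132 CPM in the lines, and summed endothelial markers at 135.5 to 173 and 71.1 to 183 CPM. Of the other lineage lists, of 10 tested endothelial and 12 adipogenic genes 0 were without overlap (median Log2FC -0.34 and 0.06). Of 9 epithelial genes 1 (11.1%) was lower in every line (median -0.03). Of 9 skeletal muscle and 7 neuronal genes 2 each were (22.2% and 28.6%, median -0.26 and -0.81), beside 5.45% of all genes.

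Macrophage genes had negative values in 30 of 30, with a median Log2FC of -3.12 (-3.48 with lines 13 and 13a summed), but line 13a stood apart from the other lines. In lines 13, 14 and 15, 29, 27 and 28 of the 30 were below the lowest primary library, and in line 13a only 3. Cx3cr1, the fractalkine receptor of tissue macrophages, was at 4.69, 80.2 and 14.8 CPM and then at 0, 1.42, 0.162 and 0.0970 CPM. It, Coro1a and Spi1 were the 3 (10%, beside 5.45% of all genes) lower in every line. The complement gene C1qa was at 5.61, 170.1 and 22.3 CPM and then at 0, 22.3, 0.162 and 0.485 CPM. Lyz2, the macrophage lysozyme, was near 0 in line 13 (0.0578 CPM) and at 167 CPM in line 13a. Csf1r, the receptor of macrophage colony-stimulating factor, was at 36.4, 188 and 74.8 CPM and then at 16.4, 39.8, 8.63 and 11.2 CPM. Without line 13a the list's median was -7.17, and without primary library 14 it was -1.25. The fitted values of genes with no count in 3 lines depend on the prior count and are no bounds.

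Interferon response genes had negative values in 28 of 28, with a median Log2FC of -1.27, and no member was lower in every line (0%, beside 5.45% of all genes). In line 13a none of the 28 was below the lowest primary library, against 27, 16 and 25 in lines 13, 14 and 15. Oas2, an interferon-induced antiviral enzyme, was at 0.379, 4.05 and 0.848 CPM and then at 0, 0.397, 0.0487 and 0 CPM. Without primary library 14, the one with the most macrophage RNA, the median was -0.20. Antigen presentation genes were lower in every line for 6 of 20 (30%, beside 5.45% of all genes). The median Log2FC of the 20 was -0.25, and -0.66 to -0.03 without 1 library. Among the 6 was H2-K1, a classical class I heavy chain, at 48.4, 59.3 and 43.7 CPM and then 33.9, 30.6, 16.1 and 18.5 CPM (Log2FC -1.03 ± 0.30, adjusted p 0.61). H2 genes are near-identical copies, so their counts can be split between them. The macrophage sum moved with the interferon list and its part in that result was not tested.

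The lines shared few of their own differences. At least 2-fold outside the range of the primary libraries (on log2(CPM + 0.5)), line 13 had 1948 genes below and 813 above, line 13a 265 and 254, line 14 1066 and 805, and line 15 958 and 302. Of 2851 genes that were below in at least 1 line, 1913 (67.1%) were so in 1 line only and 68 (2.39%) in all 4. Of 1934 genes that were above, 1723 (89.1%) were so in 1 line and 2 in all 4.

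**Figure D4:**
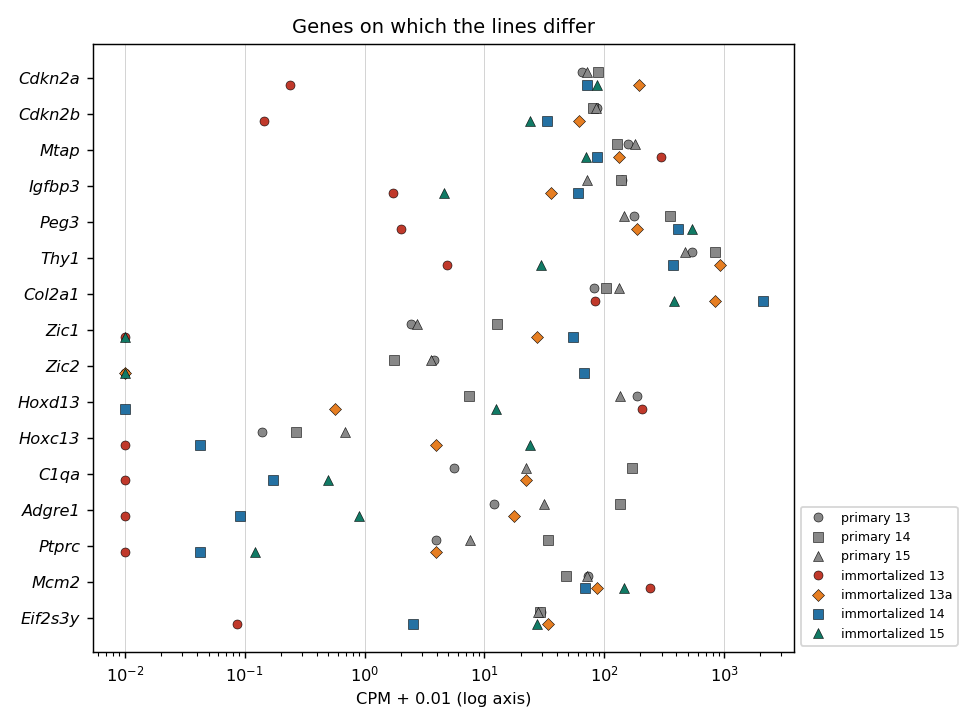
Level (CPM + 0.01, log axis) in each library of genes on which the lines differ, chosen for that after their values were seen. Grey symbols are the 3 primary libraries and coloured symbols the 4 lines; line 13 is lowest for Cdkn2a (0.231 CPM), Cdkn2b and Thy1, line 14 is highest for Col2a1 (2091 CPM), and line 13a keeps C1qa at 22.3 CPM.

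Lines 13 and 13a differed widely for lines with 1 number. Of 12642 genes at 5 CPM or more in either, 460 (3.64%) were at least 16-fold apart, 425 of them higher in line 13a and 35 higher in line 13. The farthest apart were Adam23, a disintegrin family member (0.0193 against 95.4 CPM), Hoxd12 (33.7 against 0 CPM), Lyz2, Col14a1, which encodes collagen XIV (0.0385 against 100.5 CPM), and Ctss, the macrophage cathepsin S (0 against 31.7 CPM). Eif2s3y, a Y-linked translation factor, was at 27.8 to 29.8 CPM in primary MEFs and at 0.0770, 33.8, 2.53 and 27.3 CPM in the lines, while the neighbouring Y genes Ddx3y, Kdm5d and Uty were counted in every library (17.4 CPM or more). The source of these differences was not tested.

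Expression also differed by chromosome. The median log2 ratio of a chromosome's genes to the primary mean, for genes at 5 CPM or more on average, stayed within 0.067 of 0 in every primary library on the autosomes and the X chromosome. On chromosome 4, which carries Cdkn2a, it was -0.45, -0.18, -0.23 and -0.65 in lines 13, 13a, 14 and 15. Of 1181 genes tested there, 168 (14.2%, beside 5.45% of all genes) were lower and 8 (0.677%) higher in every line. Chromosome 7 was the other autosome below 0 in every line, although only just in line 13 (-3e-04), with 157 of 1545 genes (10.2%) lower in every line and its lowest median, -0.66, in line 14. Autosomes 10 and 15 were above 0 in every line. Chromosomes 8 and 6 had the largest shares of genes higher in every line, 9.65% and 8.96%, and line 15 reached a median of 0.56 on chromosome 6 and -0.56 on chromosome 16.

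Along chromosome 4 in bins of 20 Mb, lines 13 and 15 were low throughout (-0.62 to -0.19 and -0.68 to -0.44) and line 13a less so (-0.25 to -0.10). Line 14 was near 0 from 20 to 120 Mb (-0.08 to 0.12) and low at both ends, with -0.35 between 0 and 20 Mb, -0.47 between 120 and 140 Mb and -0.77 between 140 and 160 Mb. In that last bin 56 of 227 genes (24.7%) were lower in every line. DNA copy number was not measured, and whether it moved with these values was not tested. Of the lower genes above, Tpm2 and Tnc lie on chromosome 4, in the bins from 40 to 60 and from 60 to 80 Mb. The medians of line 14 there were 0.0064 and 0.0223, while both genes were lower in line 14 too. Angptl7 lies in the bin from 140 to 160 Mb, and Adm and Bnip3 lie on chromosome 7.

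**Figure D5:**
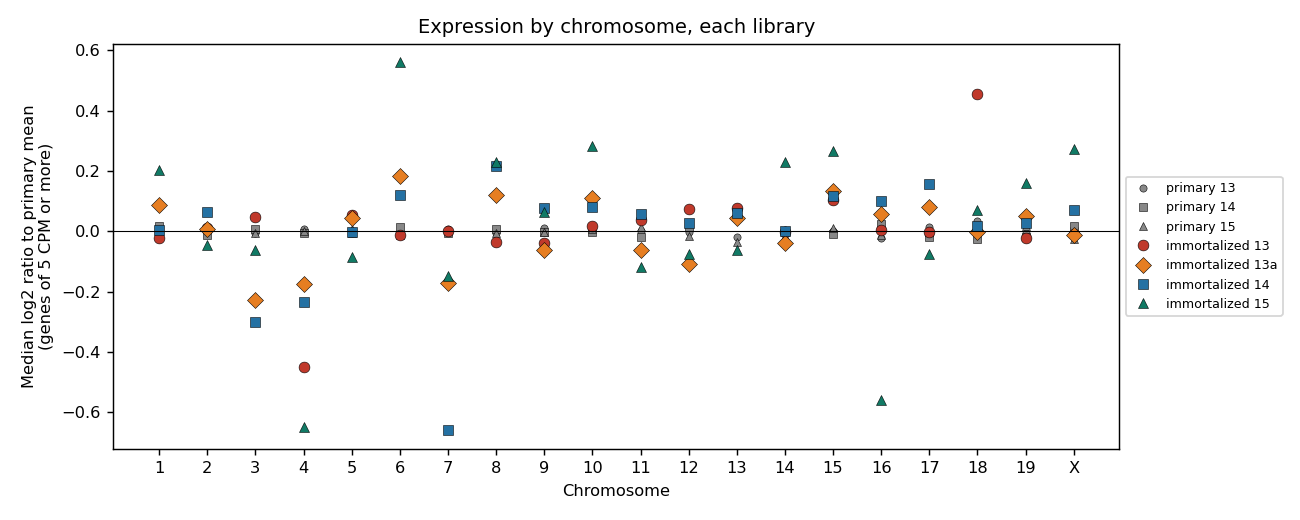
Median log2 ratio to the primary mean of the genes of each chromosome, by library. Grey symbols are primary libraries, all within 0.067 of 0 on the autosomes and the X, and coloured symbols are lines; all 4 lines lie below 0 on chromosome 4, between -0.18 and -0.65.

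Whether the change of state differed between labels was asked with an interaction term over all 13 libraries. Of 21197 genes, 0 (0%) passed an adjusted p under 0.05, the smallest adjusted p was 1, and 841 had an unadjusted p under 0.05. DESeq2's interaction test called 37 genes. Arhgap22, a GTPase-activating protein for Rac, had one of the 5 smallest p in edgeR. It was at 13.3, 13.1 and 16.3 CPM and then at 39.7, 32.9, 9.28 and 32.3 CPM, so that line 14 alone was below the primary libraries (Log2FC 1.00 here and -1.91 in WT). Without line 14, Arhgap22 and Tep1, a telomerase-associated protein, passed with an adjusted p of 0.0217 each. Of 62 genes that the article names from WT libraries, 45 had negative values here (median Log2FC -1.22, beside -3.45 in WT). The article names genes of both directions, so this count does not measure agreement. Cdh1 (Log2FC 2.26) and Zic1 (1.795), lower in the article, and Il6 (-1.405), higher there, had the opposite sign here, with overlap between states. These signs rest on few libraries. In lines 13, 13a, 14 and 15 Zic1 was at 0, 27.2, 55.2 and 0 CPM, against 2.41 to 12.6 CPM in primary MEFs. Cdh1 was at 0, 3.84, 1.36 and 0.222 CPM, against 0.182 to 0.380 CPM. Il6 had 24, 465 and 15 counts in primary libraries 13, 14 and 15 and 1, 131, 17 and 33 in the lines. By line, 46, 19, 39 and 42 of the 62 were below the lowest primary library in lines 13, 13a, 14 and 15. In every line 9 were lower (14.5%, beside 5.45% of all genes). Among them were Pou3f3, a neural transcription factor (1.17, 3.21 and 0.731 CPM, then 0, 0.113, 0 and 0.0970 CPM), Chl1, a neural adhesion molecule, and Stk26, a kinase of the Ste20 family.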

How the data were processed

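RNA with poly(A) tails was sequenced from MEF cultures. The authors deposited raw counts per gene for each library, unnormalised. The labels name FastQC 0.12.0, STAR 2.7.10a, SAMtools 1.18 and featureCounts of Subread 2.0.6, with the mouse build mm10. The counting options of the table used, strand included, are not given in the sources used here, so reads of overlapping genes cannot be told apart.

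Libraries were grouped by their labels, and the members and gene lists were chosen with earlier results of these data known. Genes kept by filterByExpr were scaled by TMM and tested with edgeR 4.0.16 (robust quasi-likelihood, state the only factor). A gene was called at an adjusted p under 0.01 and an absolute Log2FC of at least 1, and the interaction at an adjusted p under 0.05. The SE of a Log2FC was derived from its F statistic. The genes named were taken from the 12 with the smallest p in each direction that did not overlap between states (symbols of predicted genes skipped), the 3 with the smallest p in each list, the protein kinase D genes, Cdkn2a, Cdkn2b, Trp53, Cdkn1a, Mdm2 and the genes the article names, the 5 smallest interaction p in each direction, and the 5 genes farthest apart between lines 13 and 13a. Other genes named, such as Mtap, Thy1, Igf2, Tpm1 and Plau, were chosen after their values were seen. CPM values use TMM library sizes. Ratios of genes with few counts carry 95% exact Poisson intervals. Intervals and floors cover counting error only. DESeq2 1.42.0, limma 3.58.1 (voom), other scalings, other filters, summed lines, a replicate block and leaving out each library were the alternatives. Adjusted p was not given by DESeq2 for 10398 genes. The scripts were tested on simulated data. The authors' comparisons were not used. A few genes are not reported here.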

Additional observations from a re-analysis of the deposited data

Results flagged for a closer look

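4 of 57 values tested in the 4 lines had 1 line farther from the rest than Dixon's 95% limit, and chance flags about 1 in 20. Line 13 had the fewest genes with counts, 24251. Line 13 also had the lowest mean log2(CPM + 1) of the imprinted genes, 3.189, and of the INK4, p53 and RB inhibitors, 4.765, where it had 12 counts of Cdkn2a and 7 of Cdkn2b. Line 13a had the highest mean log2(CPM + 1) of the macrophage markers, 3.624. The causes were not tested.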

How the results depend on the processing

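The count of 0 called genes also held under voom (1606 genes at an unadjusted p under 0.05), other scalings and with lines 13 and 13a summed. DESeq2 called 190 genes (2144 at an unadjusted p under 0.05) and the joint fit of 13 libraries 1. Leaving out 1 library, DESeq2 called 51 to 547. Of the list members, DESeq2 called 20. The interaction gave 37 genes in DESeq2 and 0 to 2 without 1 library. Genes lower in every line numbered 1418 to 1918 and genes higher in every line 1134 to 1682 without 1 library, and 1823 and 1436 with lines 13 and 13a summed, which follows from fewer libraries to separate. The first component held 57.89% of the variance over the 500 most variable genes and 47.29% with a prior count of 0.25. The Log2FC of Prkd3 was 0.36 to 0.54 without 1 library.

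The clone number as a replicate block gave 0 called genes (946 at an unadjusted p under 0.05) and changed no call. Deviations of same-numbered libraries from their group means correlated at 0.156 (13 with 13), -0.301 (13 with 13a), 0.094 and 0.035. These few values cannot decide whether the numbers pair the libraries, because each mean is of few libraries that include the one compared. State was the only factor by design. Under the block the log2FC of Zic2 was -6.427.

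Directions turned for few named genes, none of them called by edgeR, and the cause was not tested. With lines 13 and 13a summed, the log2FC of Prkd1 was -0.00864 and the log2FC of Mdm2 was 0.04723. Under voom, the log2FC of Cdkn2a was -1.565, the log2FC of Peg3 was -1.104, the log2FC of Zic2 was -5.258 and the log2FC of Col14a1 was -1.611. Without 1 library, the log2FC of Prkd1 ranged from -0.1715 (without line 13) to 0.2787, the log2FC of Ddx3y from -0.2082 (without line 13) to 0.4329, and the log2FC of Cdkn2a from -0.5026 (without line 13a) to 0.6433. The log2FC of Peg3 ranged from -0.16 (without line 15) to 0.8252, the log2FC of Mdm2 from -0.9723 (without line 15) to 0.168, the log2FC of Zic2 from -10.73 (without line 14) to 2.91, and the log2FC of Adam23 from -1.398 (without line 13a) to 0.6037.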
